A study of Mus musculus with 16 samples.

Results

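Mouse embryonic stem cells (ESCs) carry Polycomb repressive complex 2 (PRC2), of which Suz12 is a core subunit, at many genes that they do not transcribe. The regions described here were bound by Suz12 in ESCs kept with leukaemia inhibitory factor (LIF) without a called peak of histone H3 lysine 4 trimethylation (H3K4me3), and had an H3K4me3 peak in ESCs kept by active Myc. Peaks of H3K4me3 from both cultures were joined into regions where they overlapped, and a region was kept when it held a peak of the Myc-ESC list, none of the LIF-ESC list, and had a LIF-ESC Suz12 peak within 1000 bp. There were 410 such regions among 36255 H3K4me3 regions. They were chosen on the H3K4me3 lists and on the LIF-ESC Suz12 list, so these values are given for description only.

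All samples were R1 mouse ESCs that carried MycER, a point mutant of Myc in which a threonine is replaced by alanine, fused to the ligand domain of the oestrogen receptor, and were grown without feeders on gelatin in medium with serum. LIF-ESCs received 100 units per ml of LIF and no 4-hydroxytamoxifen (OHT), and therefore carried the fusion protein without its ligand. Myc-ESCs received 50 nM OHT and no LIF. As the cultures differed in both agents, an effect of OHT and an effect of LIF withdrawal cannot be told apart. Per the methods of the study, the line is a single clone. Chromatin immunoprecipitation sequencing (ChIP-seq) of H3K4me3, Suz12 and H3K27me3 gave 16 libraries, of which 4 were inputs, and the 6 peak lists each stood for 1 culture and 1 antibody, with 2 libraries behind each. No values per library were used, so a difference between cultures has no replicate error and no p-value. Intervals are 95% Wilson intervals for shares and Newcombe intervals for differences of shares; they cover counting error only and treat regions as independent, which neighbouring regions are not.

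H3K4me3 is laid down by MLL and SET1 enzymes and marks the start sites of active genes, whereas PRC2 places trimethylation on lysine 27 of histone H3 (H3K27me3), a mark of repressed genes. In ESCs, CpG-rich start sites of many developmental genes carry both marks, a state known as bivalent, and PRC2 is known to settle on CpG islands. Myc binds DNA with Max at the hexamer CACGTG, the E-box.

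The DNA beside Suz12 at 6 of the regions is shown, so that their sequence can be read. The first 4 are the regions at a gene start with the highest Myc-ESC H3K4me3 scores, and the last 2 are the regions away from any start with the highest scores. Each sequence has 200 bases of the RefSeq GRCm38 genome, 5′ to 3′ on the plus strand, lies inside the Myc-ESC H3K4me3 peak and outside annotated exons, and touches or lies nearest to the strongest LIF-ESC Suz12 peak. Where several windows touched that Suz12 peak, the one with the most CpG was taken, so CpG counts are raised by the choice. Capitals mark CpG dinucleotides. They come from chr12:84642138-84642337 (Vrtn), chr11:12026949-12027148 (Grb10), chr2:105670356-105670555 (Pax6), chr6:126535556-126535755 (Kcna5), chr4:118742185-118742384 (nearest gene Olfr1339) and chr2:153641134-153641333 (upstream of Dnmt3b).
Vrtn: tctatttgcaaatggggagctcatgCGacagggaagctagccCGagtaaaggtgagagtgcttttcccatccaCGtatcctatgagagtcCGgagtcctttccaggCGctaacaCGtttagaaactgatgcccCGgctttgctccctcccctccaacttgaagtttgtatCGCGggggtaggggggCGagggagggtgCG
Grb10: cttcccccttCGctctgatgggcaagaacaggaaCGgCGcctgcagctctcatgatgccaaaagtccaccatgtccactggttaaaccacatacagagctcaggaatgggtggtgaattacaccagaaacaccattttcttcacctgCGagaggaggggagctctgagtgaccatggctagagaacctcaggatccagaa
Pax6: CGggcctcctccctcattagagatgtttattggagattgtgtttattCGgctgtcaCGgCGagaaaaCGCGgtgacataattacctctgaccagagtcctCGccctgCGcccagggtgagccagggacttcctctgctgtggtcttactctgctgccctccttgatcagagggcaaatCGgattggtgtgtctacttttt
Kcna5: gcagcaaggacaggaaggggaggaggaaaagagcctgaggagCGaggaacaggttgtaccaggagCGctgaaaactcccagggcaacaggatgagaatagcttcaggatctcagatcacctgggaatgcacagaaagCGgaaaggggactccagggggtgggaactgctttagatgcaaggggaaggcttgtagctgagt
Olfr1339: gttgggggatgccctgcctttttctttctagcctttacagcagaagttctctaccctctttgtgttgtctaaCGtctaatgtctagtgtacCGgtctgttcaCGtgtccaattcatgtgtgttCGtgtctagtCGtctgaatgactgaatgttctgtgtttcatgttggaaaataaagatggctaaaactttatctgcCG
Dnmt3b: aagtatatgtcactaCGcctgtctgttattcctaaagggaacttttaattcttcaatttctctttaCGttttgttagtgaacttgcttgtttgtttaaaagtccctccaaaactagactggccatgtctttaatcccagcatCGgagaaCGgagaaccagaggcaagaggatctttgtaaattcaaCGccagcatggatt
The Vrtn stretch, whose middle lies 317 bp upstream of the nearest of the gene's 3 annotated start sites, held 11 CpG, an observed/expected ratio of 0.71. The Kcna5 stretch, 101 bp upstream of the start, held 3 CpG at a ratio of 0.229, and the stretch within Grb10 held 4 at 0.291. Pax6 had 9 CpG at 0.641, and the distal stretches near Olfr1339 and Dnmt3b had 6 at 0.65 and 5 at 0.642. These stretches were chosen in part for their CpG and do not stand for the whole peak. In the 300 bases around the middle of the region, Grb10 had 46 CpG at a ratio of 1.36 and Vrtn 5 at 0.213, the reverse of their order above, and the region near Dnmt3b had 1 CpG at 0.1. CACGTG lay in the stretch near Olfr1339 but not in the middle of that region, and in the middle of the Vrtn region but not in its stretch.

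For H3K4me3, 32469 peaks had been called in the LIF-ESC list and 30345 in the Myc-ESC list; for Suz12 there were 11305 and 13907, and for H3K27me3 3120 and 16717. The depth behind each list is unknown, and the much longer Myc-ESC list of H3K27me3 bears on every count and score of that mark below. All 10 of 10 pluripotency genes that were looked up, among them Pou5f1 and Nanog, had H3K4me3 at their start sites in both cultures. Of 10 genes of other cell types, 9 carried H3K4me3 in the LIF-ESC list against 10 in the Myc-ESC list, and Suz12 lay at 9 and 10 of them. The gene that had H3K4me3 only in Myc-ESCs was Neurog1, a proneural basic helix-loop-helix factor, whose start lies within 2500 bp of a gained region. In these bulk samples, a mark gained in few cells and a mark gained weakly in all cells cannot be told apart.

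H3K4me3 was called in Myc-ESCs only at 11.9% of all H3K4me3 regions, and the 410 regions were 10.3% of the 3977 that had LIF-ESC Suz12. Of the 4312 regions with H3K4me3 in Myc-ESCs only, 9.51% had LIF-ESC Suz12, against 1.4% of the 6213 regions with H3K4me3 in LIF-ESCs only, or 87 regions. Seen from Suz12, whose LIF-ESC peaks formed 4469 domains when joined within 1000 bp, 827 domains had no LIF-ESC H3K4me3 within 1000 bp, and 340 of these (41.1%, 37.8 to 44.5%) had H3K4me3 in Myc-ESCs. In the opposite direction, 546 domains had no H3K4me3 in Myc-ESCs, and 59 of them had it in LIF-ESCs. The gains at Suz12 regions therefore outnumbered the losses in these lists, although the Myc-ESC H3K4me3 list had fewer peaks. Its peaks were longer (median 2623 against 2316 bp) and scored higher (median 357 against 300). The number of peaks alone therefore does not show which list was the more sensitive.

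The gained peaks had lower scores than peaks shared by both cultures, as single-culture peaks had in general. The peak score of MACS is -10 times the log10 of the p-value, is never under 50 in these lists, and many peaks share the value 3100, so no order is read there. Myc-ESC H3K4me3 scores of the 410 regions ran from 50.1 to 2336 with a median of 109 (quartiles 71.1 and 174), whereas the 3480 regions with LIF-ESC Suz12 and H3K4me3 in both cultures had a median of 561. The median was 73.2 in LIF-only regions with LIF-ESC Suz12 and 76.6 in Myc-only regions without it. A score of at least 100 was reached by 226 regions, 44 lay under 60, and 8 exceeded 500. The gained peaks were 1071 to 6783 bp long, with a median of 2131 bp against 3064 bp in the regions marked in both cultures.

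LIF-ESC Suz12, in contrast, ranged from barely called to very strong. The highest LIF-ESC Suz12 score in reach had a median of 212 and ran from 51.0 to 3210, with 270 regions at 100 or above and 49 at 3100 or above. A score above the upper quartile of the gained regions was found at 25.1% of them, by construction, and at 10.9% of those marked in both cultures. The longest Suz12 peak in reach had a median length of 550 bp against 456 bp. A Suz12 peak overlapped 392 of the regions and lay 1 to 1000 bp away from 18, 11 of them over 500 bp away. The member nearest that limit, at chr19:46312953-46315440 in the gene Psd, had its Suz12 peak 888 bp away (score 55.9), and just outside it 19 Myc-only regions had a Suz12 peak over 1000 and up to 2000 bp away, the nearest at 1002 bp.

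Absence of a LIF-ESC H3K4me3 peak within the region did not mean that none was near. The nearest LIF-ESC H3K4me3 peak lay at a median distance of 11317 bp, within 1000 bp at 37 regions (9.02%) and within 5000 bp at 143 (34.9%). The closest was 210 bp away, in a tandemly repeated stretch described further on. At Foxl1, a forkhead factor gene, the gap was 1010 bp and at Kremen2, a receptor for Dickkopf proteins, 235 bp, whereas at Fezf2, a zinc-finger factor gene, it was 57216 bp.

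Polycomb marks accompanied the gained H3K4me3 at most of the regions. Suz12 was called in Myc-ESCs at 335 of 410 (81.7%, 77.7 to 85.1%), and H3K27me3 at 276 (67.3%, 62.6 to 71.7%), against 128 (31.2%, 26.9 to 35.9%) with H3K27me3 in LIF-ESCs. Over all H3K4me3 regions, H3K27me3 was called at 3.58% in LIF-ESCs and at 9.47% in Myc-ESCs, and of those with LIF-ESC Suz12, 13.7% had no Suz12 in Myc-ESCs. Among the gained regions, 110 (26.8%) had H3K27me3 in both cultures, 166 (40.5%) in Myc-ESCs only, 18 (4.39%) in LIF-ESCs only and 116 (28.3%) in neither. Of the 282 without it in LIF-ESCs, 58.9% had it in Myc-ESCs. This rise in H3K27me3 depended on the length of the lists: with the longer list of each antibody cut to its highest-scoring peaks so that both cultures had equally many, H3K27me3 was called at 30.9% of the gained regions in LIF-ESCs and at 31.3% in Myc-ESCs.

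**Figure D1:**
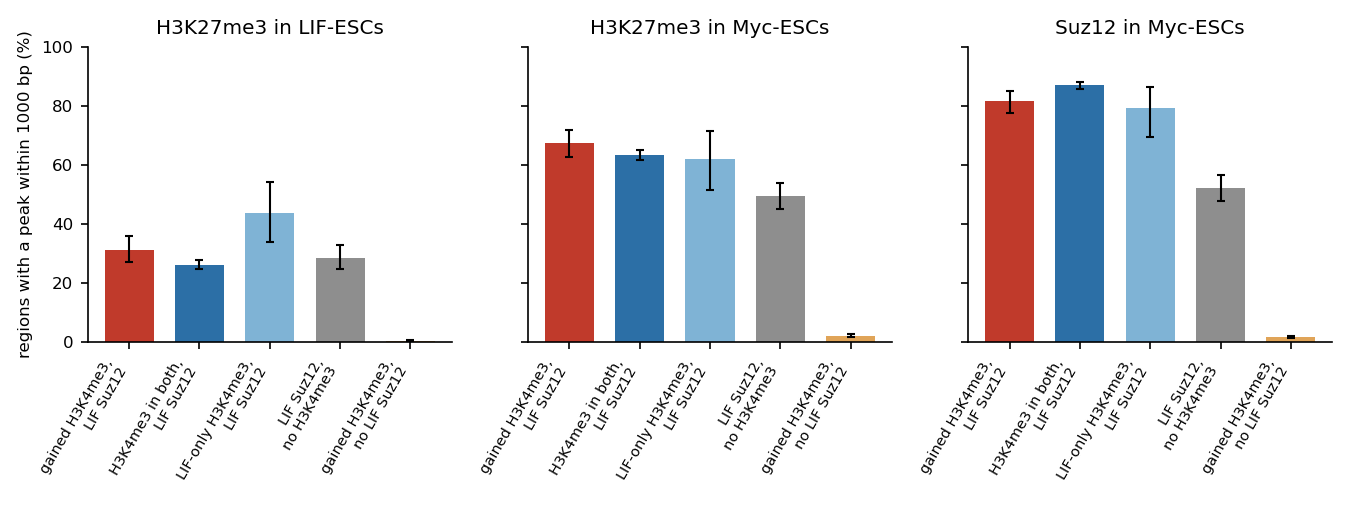
Share of regions (percent, vertical axis) with a peak of H3K27me3 in LIF-ESCs, H3K27me3 in Myc-ESCs or Suz12 in Myc-ESCs within 1000 bp, for 5 classes of region; bars are shares and lines 95% Wilson intervals. The gained regions with LIF-ESC Suz12 stood at 31.2, 67.3 and 81.7%, close to the regions with H3K4me3 in both cultures, and gained regions without LIF-ESC Suz12 at 2.05% or less.

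Set beside the regions with Suz12 and H3K4me3 in both cultures, the gained regions had somewhat less often kept Suz12. Suz12 was called in Myc-ESCs at 87.1% of the former, a difference of -5.36 percentage points (-9.53 to -1.73). H3K27me3 in Myc-ESCs differed by 3.93 points (-1.02 to 8.58), an interval that includes 0. H3K27me3 in LIF-ESCs differed by 5.07 points (0.527 to 9.93), and this sign turned, to -5.42 points, when a mark had to overlap the region itself. The Suz12 difference was 0.08 points when LIF-ESC Suz12 peaks had to score at least 100. Of the 487 LIF-ESC Suz12 regions with no H3K4me3 in either culture, 52.2% had Suz12 and 49.3% had H3K27me3 in Myc-ESCs, lower by 29.6 points (23.6 to 35.2) and 18 points (11.6 to 24.2). Those regions were also shorter (median 217 bp) and had lower LIF-ESC Suz12 scores (median 65.9), and these calls did not hold at higher scores. When all lists were held to a score of at least 100, the Suz12 difference was 3.14 points, with an interval that includes 0, and the H3K27me3 difference turned to -13.9 points. With LIF-ESC Suz12 alone held to that score they were 4.57 and 2.35 points, and with lists of equal length the H3K27me3 difference was 3.47 points, each with an interval that includes 0. Of the 3902 gained regions without LIF-ESC Suz12, 0.359% had H3K27me3 in LIF-ESCs and 2.05% in Myc-ESCs.

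The calls of Suz12 and H3K27me3 in Myc-ESCs varied with the LIF-ESC Suz12 score. When the regions were split at the quartiles of that score, no Suz12 was called in Myc-ESCs at 49.5% of the first quartile (scores 51.0 to 78.4, n = 103), 21.6% of the second, 1.96% of the third and 0 of 103 in the fourth (scores 1460 to 3210). H3K27me3 in Myc-ESCs rose over the same quartiles from 35.0% through 55.9 and 81.4% to 97.1%, and in LIF-ESCs from 19.4% through 25.5 and 28.4% to 51.5%. In the same score ranges the regions with H3K4me3 in both cultures had H3K27me3 in Myc-ESCs at 38.1, 55.0, 79.3 and 95.3%, and the Suz12 regions without H3K4me3 at 38.3, 56.6, 89.3 and 100%. The intervals of the differences of H3K27me3 in Myc-ESCs included 0 in each quartile. In LIF-ESCs, H3K27me3 was called at 7.61 points more of the gained regions than of those marked in both cultures in the first quartile (0.736 to 16.5) and 8.16 points more in the second (0.316 to 17.7), but at -13.5 points (-24.0 to -2.81) in the fourth. Against Suz12 regions without H3K4me3 it differed by -23.4 points (-38.2 to -7.49) in the third quartile and by -39.5 points (-51.6 to -9.3) in the fourth, where that class had 11 regions. Loss of the Suz12 call was more frequent at gained regions than at those marked in both cultures in the first quartile, by 15.2 points (5.25 to 25.2), and in the second, by 9.08 points (1.88 to 18.2). Against Suz12 regions without H3K4me3, which stood at 62.9 and 29.3%, it differed by -13.4 points (-24.2 to -2.48) in the first quartile and by -7.72 points (-19.5 to 4.31), an interval that includes 0, in the second.

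**Figure D2:**
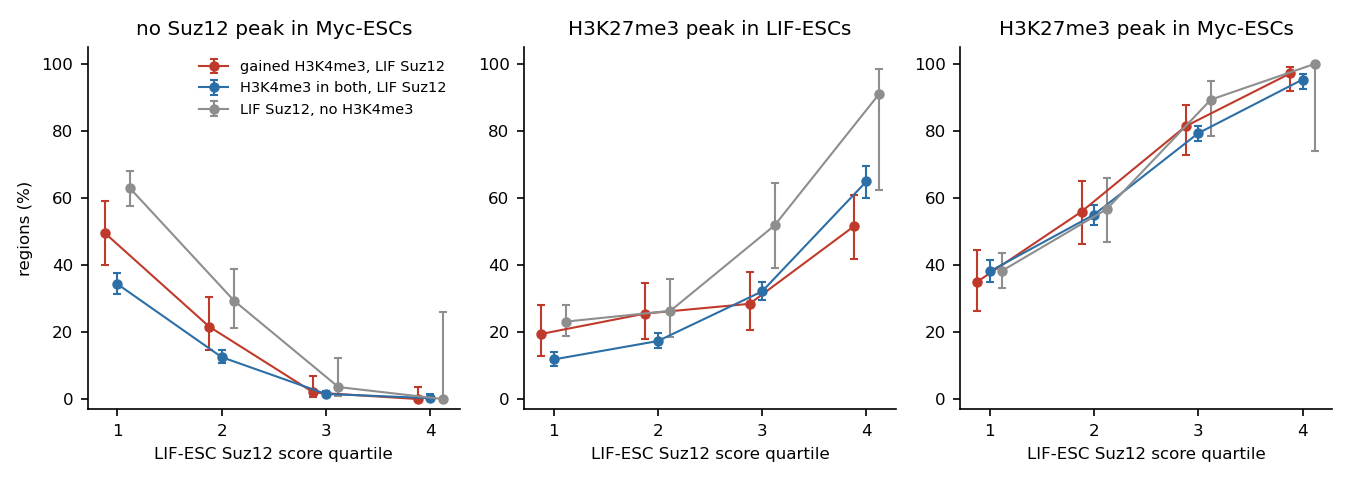
Share of regions (percent) without a Suz12 peak in Myc-ESCs, with an H3K27me3 peak in LIF-ESCs and with one in Myc-ESCs, by quartile of the LIF-ESC Suz12 score of the gained regions; points are shares and lines 95% Wilson intervals. In the gained regions, loss of the Suz12 call fell from 49.5% to 0 over the quartiles while H3K27me3 in Myc-ESCs rose from 35.0 to 97.1%.

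The 75 regions without a Suz12 call in Myc-ESCs (18.3%) had a median LIF-ESC Suz12 score of 67.4, against 529 in the 335 that had one, so their Suz12 peaks had been near the limit of detection. Their H3K4me3 scores were alike, with medians of 106 and 110. H3K27me3 was called in Myc-ESCs at 20.0% of the former and at 77.9% of the latter, and 60 of the 410 regions (14.6%) had neither Suz12 nor H3K27me3 in Myc-ESCs. Of the 8 regions with an H3K4me3 score over 500, 4 were without Suz12 in Myc-ESCs.

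**Figure D3:**
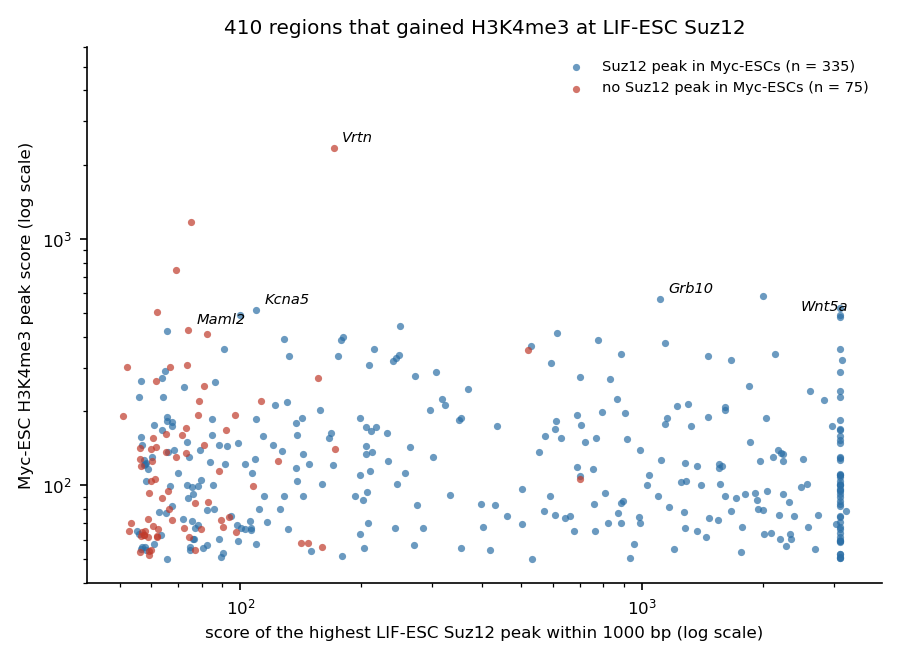
Each point is 1 of the 410 gained regions; the horizontal axis is the highest LIF-ESC Suz12 score within 1000 bp and the vertical axis the Myc-ESC H3K4me3 score, both -10 log10 p on log scales. Regions without Suz12 in Myc-ESCs (red, 75) lay mostly at low LIF-ESC Suz12 scores (median 67.4) over the whole range of H3K4me3 scores, and the column of points at the right edge stands at the shared score of 3100.

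The gained regions lay at gene starts less often than regions marked in both cultures, and more often than Suz12 regions that stayed without H3K4me3. A RefSeq start site lay within 2500 bp of 185 regions (45.1%, 40.4 to 50.0%), against 42.3% of all H3K4me3 regions, 77.2% of those with Suz12 and H3K4me3 in both cultures, and 13.3% of the Suz12 regions without H3K4me3. The differences were -32 points (-37 to -27) and 31.8 points (26 to 37.3). In the fourth quartile of LIF-ESC Suz12 score they were -29.3 points (-39.5 to -18.9) and -12.2 points (-35.4 to 17.6), the latter against 11 regions. The Suz12 regions without H3K4me3 were also shorter, with a median of 217 bp against 2131 bp, and the part of length was not tested. A start site lay inside 124 regions. The middle of the region fell in an exon at 115, in an intron at 116 and between genes at 179 (43.7%). Of the regions without a start in reach, the nearest was 2500 to 10000 bp away at 110, up to 50000 bp away at 69 and farther at 46.

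Base composition followed the same order. In 300 bases around the middle, the median observed/expected CpG ratio was 0.6 in the gained regions, 0.745 in regions marked in both cultures, 0.423 in gained regions without LIF-ESC Suz12 and 0.296 in Suz12 regions without H3K4me3. A ratio over 0.6 was reached by 206 gained regions (50.2%). This was -22.7 points (-27.8 to -17.7) from the regions marked in both cultures and 35.3 points (29.3 to 40.9) from the Suz12 regions without H3K4me3. Neither call held at the highest LIF-ESC Suz12 scores. In quartiles 1 to 3 of that score, the differences from regions marked in both cultures were -30.8, -28.6 and -27.1 points. In quartile 4 the difference was 1.29 points (-9.31 to 11.0). Against Suz12 regions without H3K4me3 they were 26.6, 27.9 and 27.6 points. In quartile 4, against 11 such regions, the difference was 12.4 points (-13.6 to 40.3). The CpG ratio exceeded 0.6 at 54.0% of the gained regions that had Suz12 in Myc-ESCs and at 33.3% of those that had not. CACGTG, which reads the same on both strands, was found in the 300 bases of 32 gained regions (7.8%), against 6.00% of all H3K4me3 regions and 7.15% of all RefSeq promoters of 300 bases. The share differed by 1.94 points (-0.43 to 5.04) from regions marked in both cultures, by 1.06 points (-1.31 to 4.16) from gained regions without LIF-ESC Suz12, and by 4.93 points (2.01 to 8.15) from Suz12 regions without H3K4me3. The last was 1.85 points (-3.47 to 6.42) with LIF-ESC Suz12 scores of at least 100. With all lists held to that score, the same differences were 3.73 points (0.933 to 7.4), 2.83 points (0.0806 to 6.49) and 4.29 points (0.227 to 8.32). The call on CACGTG therefore depended on the score minimum. A match of 6 letters is a description of the sequence, not a site of binding.

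Start sites of 211 genes lay within 2500 bp of a gained region, and 173 of these genes had no LIF-ESC H3K4me3 within 2500 bp of those starts, although it could lie at another start of the same gene, as at Pax6 and Wnt5a. Over all annotated starts, 160 genes had LIF-ESC Suz12 and Myc-ESC H3K4me3 and no LIF-ESC H3K4me3. The region with the highest score lay at Vrtn, which encodes the vertebral development factor vertnin. The region at chr12:84639124-84644580 spanned a start site and had an H3K4me3 score of 2336 in Myc-ESCs. Its LIF-ESC Suz12 score was 171, and neither Suz12 nor H3K27me3 was called in Myc-ESCs. Maml2, a coactivator of Notch, showed the same pattern at chr9:13295331-13299366, with an H3K4me3 score of 425, a LIF-ESC Suz12 score of 74.0 and no Polycomb call in Myc-ESCs.

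Other strong gains at start sites kept Suz12. The region at chr11:12025124-12027461 lay 509 bp from an internal start site of Grb10, which has 2 annotated starts and is an imprinted gene for an adaptor that dampens insulin receptor signalling, and had an H3K4me3 score of 569. From the LIF-ESC to the Myc-ESC list, its Suz12 score went from 1105 to 2564 and its H3K27me3 score from 140 to 420. At Pax6, a paired homeobox factor of eye and forebrain, the region chr2:105666212-105670555 scored 523 for H3K4me3, Suz12 stood at the shared score of 3100 in both cultures, and H3K27me3 was called in Myc-ESCs only (136). All 3 marks were therefore called at Grb10 and Pax6 in Myc-ESCs. The nearest LIF-ESC H3K4me3 peak was 101421 bp away at Grb10 and 3877 bp away at Pax6.

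Kcna5, a voltage-gated potassium channel gene, and Psmb8, an immunoproteasome subunit gene, had H3K4me3 scores of 514 and 493 at chr6:126533575-126536280 and chr17:34196466-34199563. Their Suz12 scores were low, 109 and 99.8 in LIF-ESCs and 81.5 and 62.6 in Myc-ESCs, and H3K27me3 was called at neither. Pcdh20, a protocadherin gene, had an H3K4me3 score of 421 at chr14:88468480-88471795, with Suz12 near the limit in both cultures (65.8 and 55.7) and H3K27me3 in Myc-ESCs only (68.5). The X chromosome held 17 of the gained regions (4.15%), near its 3.64% of all H3K4me3 regions. It held 4.07% of gained regions without LIF-ESC Suz12 and 3.9% of Suz12 regions without H3K4me3. Of regions with Suz12 and H3K4me3 in both cultures it held 1.81%, a difference of 2.34 points (0.716 to 4.76).

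**Figure D4:**
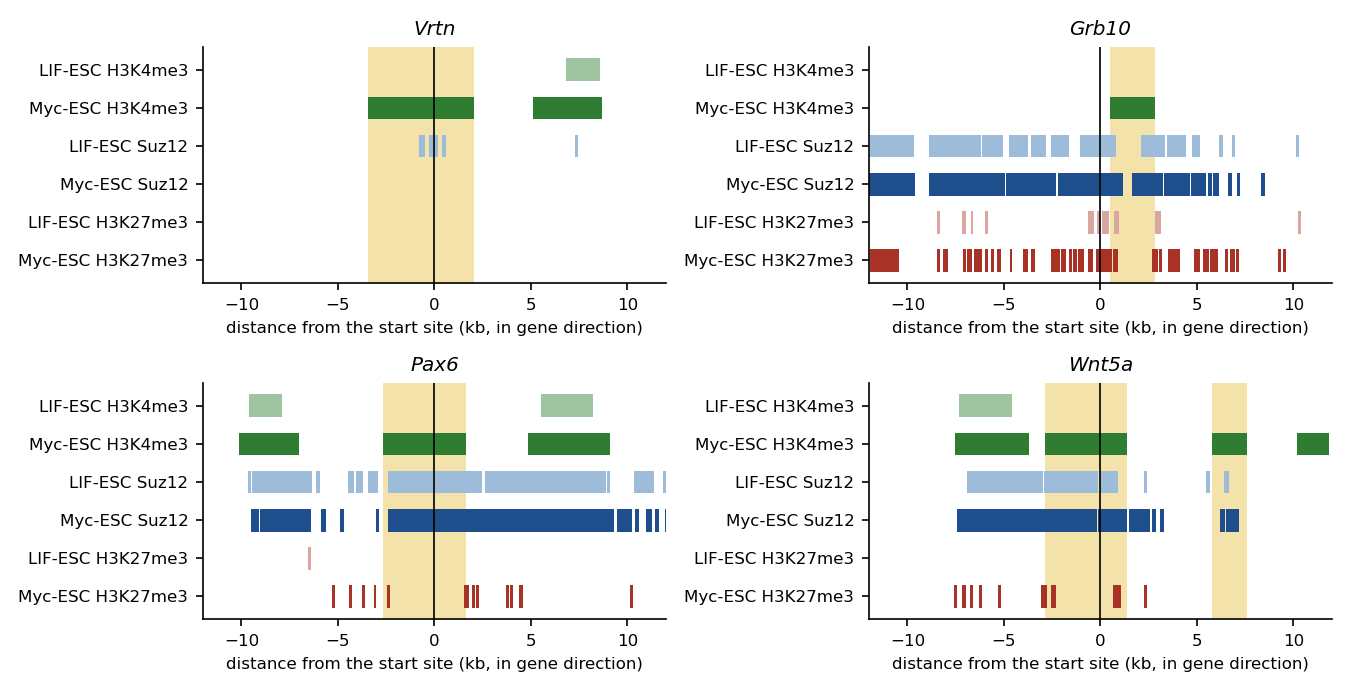
Called peaks of the 6 lists around start sites of Vrtn, Grb10, Pax6 and Wnt5a; the horizontal axis is the distance in kb from the gene's start site nearest to the region, in the direction of the gene; each row is 1 list, and shading marks the gained regions. Suz12 peaks of Myc-ESCs lie over the gained regions at Grb10, Pax6 and Wnt5a, with H3K27me3 peaks scattered over the plotted stretch. At Pax6, the H3K27me3 peaks that meet the gained region lie only near its edges. Both marks of Myc-ESCs are missing from the plotted stretch at Vrtn.

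Many of the genes encode transcription factors that specify lineages. Of the 3064 genes with LIF-ESC Suz12 and H3K4me3 of either culture at the start, 209 (6.82%) were at a gained region. For homeobox genes this was 31 of 162 (19.1%, 13.8 to 25.9%), for T-box genes 3 of 10, for forkhead genes 4 of 24, for basic helix-loop-helix lineage genes 4 of 36, for zinc-finger developmental factors 3 of 42 and for Sox genes 1 of 15, namely Sox14. The 6 groups together had 46 of 289 (15.9%). Nuclear receptors had 6 of 21 (28.6%), Nr2f1 and Nr2f2 among them. Neighbouring genes share regions, as at the Hoxb cluster, and with 1 region kept per 20000 bp the homeobox share was 11.7% against 5.84% of all such genes.

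Within the homeobox group, Hoxb5 and Hoxb6 had H3K4me3 scores of 356 and 242, and Hoxc6 had 287. Tbx4, a T-box factor of the hindlimb, scored 492 over 6177 bp, Fezf2, a zinc-finger factor of forebrain neurons, 322, and Foxb1, a forkhead factor of the nervous system, 242. At each of these, Suz12 stood at 3100 or within the top quartile in LIF-ESCs. H3K27me3 was called there in both cultures with the higher score in Myc-ESCs, from 80.5 at Hoxb5 to 322 at Hoxb6. Over all gained regions with a call, the median H3K27me3 score was likewise higher in Myc-ESCs, 95.2 against 67.7 in LIF-ESCs. Rax, a homeobox factor of the retina, had an H3K4me3 score of 222, and its H3K27me3 score was 73.9 in LIF-ESCs and 360 in Myc-ESCs. Ferd3l, a helix-loop-helix factor of neural progenitors, had an H3K4me3 score of 217, a higher Suz12 score in Myc-ESCs (366 against 130) and H3K27me3 in Myc-ESCs only.

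Among other groups, cadherins and protocadherins had 9 of 60 genes at a gained region (15%), microRNA genes 8 of 53 (15.1%), long non-coding RNA genes 33 of 395 (8.35%), ion channels and neurotransmitter receptors 10 of 138, other G protein-coupled receptors 4 of 64, guidance genes 3 of 46, solute carriers 3 of 65, extracellular matrix genes 3 of 56, and germline genes 1 of 7, namely Sycp1. Ligands, receptors and inhibitors of the Fgf, Bmp and TGF-beta families had 1 of 46, Gdf6. The shares of the smaller groups have wide intervals, and those of channels and guidance genes lay near the 6.82% of all genes. Genes within these groups also shared loci when regions were joined within 20000 bp. Pcdhb2 lay with Pcdhb3, Pcdhb17 with Pcdhb18 and Pcdhb19, and Mir10a and Mir10b with Hox genes. These shares were not recomputed with 1 region per locus.

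Because the study centred on Wnt signalling, its pathway lists were looked up among the gained regions; the study had gathered them from public databases and papers. The Wnt list had 11 genes there, of which 10 were among the 114 with LIF-ESC Suz12 and H3K4me3 at the start (8.77%, 4.83 to 15.4%), beside 6.82% of all such genes. The MAPK list had 12 of 139, Hippo 5 of 51 and TGF-BMP 4 of 67, whereas the Jak-Stat list had 0 of 28, which allows a share of up to 12.1%, and the pluripotency list 0 of 22, which allows up to 14.9%. None of Sfrp1, Fzd7, Socs3, Dkk1, Sfrp5, Apcdd1, Sox17 and Fzd1 was at a gained region, and all 8 had H3K4me3 in both cultures. The study measured gains as a fold change in enrichment, whereas a gained region here had no LIF-ESC peak. The gain of H3K4me3 that the study reported at Fzd7 was therefore not examined here.

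The Wnt genes included 3 ligands. Wnt5a, a ligand of the branch that does not use beta-catenin, had the highest score, 481 at chr14:28508542-28512787, with Suz12 at 3100 in both cultures and H3K27me3 in Myc-ESCs only (154). Wnt1 and Wnt10b, which lie next to each other on chromosome 15 and signal through beta-catenin, had H3K4me3 scores of 130 and 104, and their H3K27me3 scores were 58.1 and 66.4 in LIF-ESCs and 247 and 79.6 in Myc-ESCs. Rspo3, a secreted enhancer of Wnt signalling, had 2 adjoining regions with scores of 85.1 and 70.6, Suz12 in both cultures (883 and 955) and no H3K27me3. The others included the inhibitory coreceptor Kremen2 (79.8), Daam2, a formin of the planar polarity branch (74.8), Grb10, and the transcription factor genes Six3 (168), Foxl1 (125) and Barx1 (70.1). Suz12 was called in Myc-ESCs at each of the 11 genes, and H3K27me3 at 9, the exceptions being Rspo3 and Daam2. Over all gained regions these calls stood at 81.7% and 67.3%, so the counts are not read as particular to Wnt genes.

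Of the 5 strongest gains away from gene starts, 3 had no Polycomb call in Myc-ESCs. The region chr4:118740149-118744065, 5617 bp from the start of the olfactory receptor gene Olfr1339, had an H3K4me3 score of 1166, Suz12 at 75.1 and H3K27me3 at 75.1 in LIF-ESCs, and neither in Myc-ESCs. The region chr2:153638142-153644924 was the longest of all at 6783 bp, lay 4524 bp from the start of Dnmt3b, a de novo DNA methyltransferase gene, and had an H3K4me3 score of 745 with Suz12 in LIF-ESCs only (69.0). A region at chr12:106476740-106481187 had 504 and Suz12 in LIF-ESCs only (61.8). In contrast, chr12:56518467-56522197, in an intron of Sfta3-ps, had 589 with Suz12 at 1998 and 2172 and H3K27me3 at 79.6 and 203 in LIF-ESCs and Myc-ESCs. Regions at starts and away from them had median H3K4me3 scores of 125 and 94.5 and Suz12 in Myc-ESCs at 85.9 and 78.2%.

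Of the 5 highest H3K27me3 scores in Myc-ESCs, 4 lay at or beside homeobox genes, in broad Suz12 peaks, and the other, 558, lay in the repeated region near Smgc. At chr19:43605833-43607622, 4702 bp from the start of Nkx2-3, H3K27me3 scored 1121 and was not called in LIF-ESCs, while H3K4me3 scored 59.6. At Dlx6, a distal-less homeobox gene, H3K27me3 scored 621 in Myc-ESCs against 93.8 in LIF-ESCs. A region in an exon of Lhx1, a LIM homeobox gene, had 431 against 68.8. The longest Suz12 peaks in reach were 11889 bp in Pax9, 11069 bp at Hoxb5 and Hoxb6, 9720 bp at Lhx1, and 8018 bp near Irx5. H3K4me3 was weak at the Pax9 and Irx5 regions, with scores of 66.3 and 82.7.

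Some of the regions lay close together. The 410 regions fell into 328 loci when joined within 20000 bp, and 136 had another within that distance. The same share was not computed for other H3K4me3 regions. The Hoxb cluster had 8, over chr11:96284110-96347171, 7 of them at the starts of Hoxb3 to Hoxb8 and of Mir10a. Their H3K4me3 scores ran from 53.8 to 356, highest at Hoxb5, their LIF-ESC Suz12 scores from 1198 upwards, and their Myc-ESC H3K27me3 scores from 62.8 to 322. Suz12 and H3K27me3 were called at all 8 in Myc-ESCs, and H3K27me3 at 6 in LIF-ESCs. Loci with 3 regions included Nr2f1, Hoxd4 with Mir10b, Zic1 with Zic4, and Sox14.

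The locus with the most regions was of another kind. On chromosome 6, 15 gained regions lay within 129 kb at chr6:114508640-114637626, where 94.8% of 31-base words occurred more than once and the most common spacing was 2445 bp. In this tandem repeat the lists called 23 and 28 H3K4me3 peaks, 63 and 27 Suz12 peaks, and 64 and 118 H3K27me3 peaks, the LIF-ESC number first, and no gained region lay over 4459 bp from a LIF-ESC H3K4me3 peak. The H3K4me3 scores of the 15 were 58.0 to 113. Per the methods of the study, reads had been kept only where they had a unique best location; the part of the repeat in these calls was not tested. With the region near Smgc, 16 regions were mostly local repeat, and the 394 others had H3K27me3 at 29.2% in LIF-ESCs and 66% in Myc-ESCs, Suz12 in Myc-ESCs at 82.2% and a gene start at 47%.

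**Figure D5:**
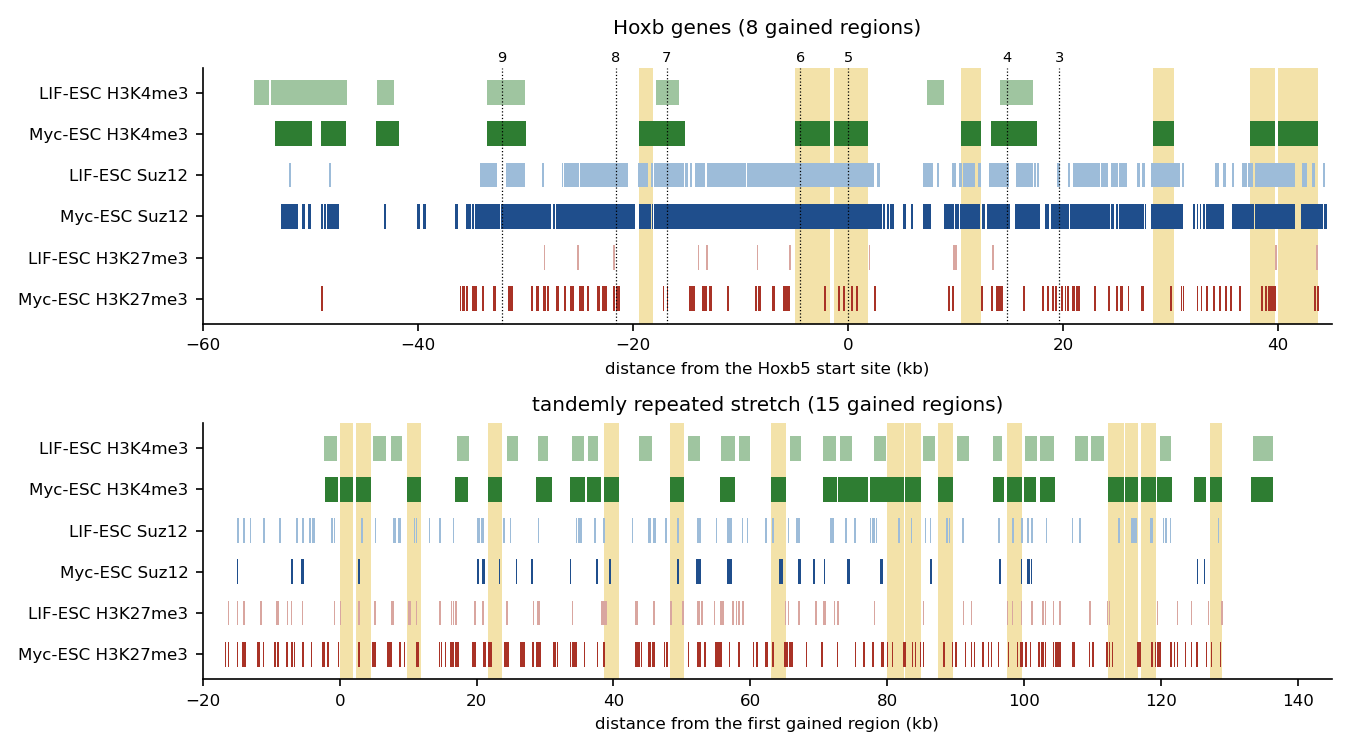
Called peaks of the 6 lists over the Hoxb cluster (top) and over the tandemly repeated stretch of chromosome 6 (bottom). The horizontal axis is the distance in kb from the Hoxb5 start (top) or from the first gained region (bottom). Shading marks gained regions. Dotted lines mark a single annotated start site per gene, named by Hoxb number. The gained regions at Hoxb3 lie by another start of that gene, which is not drawn. Suz12 peaks lie over the 8 regions at Hoxb in both cultures, whereas the 15 regions in the repeat lie among H3K4me3 peaks of both cultures and scattered short Suz12 and H3K27me3 peaks.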

How the data were processed

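ChIP-seq libraries of R1 MycER ESCs had been aligned to GRCm38 (mm10) with Bowtie2 2.2.3, keeping reads with a unique best location, and peaks called with MACS 1.4.2, per the labels and the methods of the study; the sources used here do not state whether replicates were pooled. The deposited lists give each peak's position and its score, -10 times the log10 of the p-value. The depth per library is unknown, so the weight of single peaks cannot be set. All 6 lists were used as deposited, without a score filter. Regions, reaches of 1000 bp and start sites within 2500 bp (RefSeq curated transcripts) were computed with Python 3.11.15, pandas 2.3.3, numpy 2.4.6 and pysam 0.24.0, and the counting was tested on simulated data. GRCm38 sequence was read around region middles. Groups came from the culture and antibody in the labels. No test across replicates was possible. Alternatives changed the score minimum, list length, reach, start window, annotation, sequence window and repeats. Named regions were the 10 at gene starts and the 5 elsewhere with the highest H3K4me3 score, the 5 with the highest H3K27me3 score, the 5 with the longest Suz12 and the 5 with the longest H3K4me3 peak, those of the Wnt list, up to 10 of developmental factors by H3K4me3 score, and those nearest the limits; Neurog1, Sox14, Sycp1 and Gdf6 were named after their values were seen. Some regions that the rule names are not reported here. The members and lists were chosen with earlier results of these data known.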

Additional observations from a re-analysis of the deposited data

How the results depend on the processing

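Of 25 results recomputed under up to 17 alternatives, 237 of 306 values kept their call or stayed within the set margin. The sign turned in 15 values. In 11 of these the interval included 0 in the setting reported above: H3K27me3 in Myc-ESCs against regions marked in both cultures ranged down to -4.96 points, and H3K27me3 in LIF-ESCs against Suz12 regions without H3K4me3 down to -3.78. The other 4 are given below. No paired analysis was possible because each culture and antibody had 1 list, and for the same reason no replicate could be left out. The depth of the libraries is unknown, and weak peaks cannot be told from peaks missed at lower depth. Unless a sentence shows it, the cause of a change was not tested.

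With a score of at least 100 in all lists, H3K27me3 was called at 4.95% of the gained regions in LIF-ESCs and 36.8% in Myc-ESCs, Suz12 in Myc-ESCs at 88.5%, a gene start at 58.2%, and 51.4% of Suz12 domains without LIF-ESC H3K4me3 had it in Myc-ESCs; 10.3% of genes were at a gained region; against regions marked in both cultures, the difference was 1.03 points for LIF-ESC H3K27me3 and -2.54 for Myc-ESC Suz12, and against Suz12 regions without H3K4me3, -13.9 for Myc-ESC H3K27me3, a turned sign, and 3.14 for Suz12. With lists of equal length, Myc-ESC H3K27me3 was at 31.3%, the domain share 44.9%, the gene share 8.01%, and its differences 6.98 and 3.47 points. A minimum of 100 for Myc-ESC H3K4me3 alone left 226 regions, 52.2% at a gene start, a domain share of 27.1%, a LIF-ESC H3K27me3 difference of 3.02 points, and homeobox and all-gene shares of 11.7 and 4.58%. A minimum of 100 for LIF-ESC Suz12 alone left 270 regions, with H3K27me3 at 37.4 and 82.6%, Suz12 at 95.9% and a domain share of 54.7%; differences from regions marked in both cultures were 4.65 and 7.95 points for H3K27me3 in LIF-ESCs and Myc-ESCs and 0.08, a turned sign, for Suz12, and from Suz12 regions without H3K4me3 they were 2.35 and 4.57 points.

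A Suz12 peak overlapping the region gave a Myc-ESC H3K27me3 difference of 5.36 points from regions marked in both cultures. A reach of 5000 bp for Suz12 gave H3K27me3 at 26.1 and 57.3%, Suz12 at 69.5% and a LIF-ESC H3K27me3 difference of 1.46 points. That difference was 3.34 points with no LIF-ESC H3K4me3 within 1000 bp, and 3.44 with none within 5000 bp, which left 267 regions, Myc-ESC H3K27me3 at 58.4%, and homeobox and all-gene shares of 9.26 and 4.77%. With marks overlapping the region, H3K27me3 was at 15.6 and 52.7%, and the LIF-ESC difference turned to -5.42 points; with marks within 5000 bp it was at 46.1 and 72.7%, with a Myc-ESC difference of 5.99 points; within 1000 bp of the middle of the Suz12 peak it was at 20.2 and 57.3%, with differences of 3.26 and 8.04 points. Start windows of 1000 and 5000 bp put 35.1 and 57.6% of regions at a gene start, with homeobox shares of 11 and 28% and all-gene shares of 5.44 and 8.07%; GENCODE put 52% there. CACGTG was found in 20.2% of windows of 1000 bases. Chosen after seeing the data, leaving out locally repeated regions gave a LIF-ESC H3K27me3 difference of 3.65 points, and 1 region per locus gave H3K27me3 at 25.9 and 61.6%, a LIF-ESC difference that turned to -0.235 points, and homeobox and all-gene shares of 11.7 and 5.84%.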
